A study of Mus musculus with 6 samples.

Results

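The 54 genes described here are the translation initiation factor genes of naive and activated mouse CD4+ T cells, taken as every row of the expression table whose symbol starts with Eif followed by a digit. They are 54 of the 14379 genes in the table, and all 54 passed the filter on low values that kept 10173 genes for testing. The study sequenced polyadenylated RNA of naive CD4+ T cells (day 0, 3 libraries) and of CD4+ T cells after 48 hours of activation (day 2, 3 libraries). Both groups came from lymph nodes and spleen of wild-type C57BL/6 mice with no transgene or deletion, and the methods give both sexes and an age of 7 to 10 weeks for experiments outside the disease model. The 3 libraries of a group are described as biologically independent. Naive cells were isolated by FACS. Activated cells were stimulated on plate-coated anti-CD3e with soluble anti-CD28 under conditions that do not polarize them. There was no unstimulated culture of 48 hours, and the effect of stimulation cannot be told apart from that of culture. Values are the deposited log2 values, headed FPKM (a measure of fragments per gene length and depth) in a sheet named for the batch correction ComBat. They share a base value of 1.99 (3.97 on the linear scale) where genes without signal stand. Linear units below are the antilogarithm minus that base, and for genes near the base the log2 differences are compressed.

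Translation starts when eIF2, carrying the initiator tRNA and GTP, joins the small ribosomal subunit together with eIF1, eIF1A, eIF3 and eIF5, and the complex is brought to the capped 5' end of the mRNA by eIF4F. eIF4F holds the cap-binding protein eIF4E, the helicase eIF4A and the scaffold eIF4G, and the 4E-BP proteins keep eIF4E from the scaffold until mTORC1 phosphorylates them. Kinases that phosphorylate eIF2 block its recycling by eIF2B and so restrain initiation under stress. Naive T cells are small and translate little, and once activated they enlarge and raise protein synthesis before they divide.

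Most of the family was higher after activation. Calls required a change of 1.5-fold or more with an adjusted p below 0.05 in limma, the thresholds the study used. By this rule 33 of 54 members (61.1%) were higher in activated cells, 6 (11.1%) were lower and 15 did not pass. Among all 10173 genes tested, 31.2% were higher, 21.6% were lower and 52.8% were called in either direction, against 72.2% of the members. The median log2 difference was 0.86 over the members and 0.13 over all genes tested. The 3 activated libraries all lay above the 3 naive libraries for 38 members (against 43.9% of all genes tested), all below them for 9 (against 32.9%), and overlapped them for 7. The summed linear values of the members were 7301, 7753 and 8714 units in the naive libraries and 14260, 12830 and 12310 units in the activated libraries, while the sums over all genes lay between 848100 and 912500. The family was already abundant in naive cells, where 24 members stood among the 1000 highest genes tested, and 28 did so after activation.

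The changes were not uniform within the family. Of the 33 higher members, 24 had a log2 difference of at least 1 and 4 one of at least 2. These 4 were Eif2s3y, Eif4ebp1, Eif5a and Eif6. The 6 lower members were Eif2ak1, Eif2ak2, Eif3f, Eif4e3, Eif4ebp2 and Eif4g3. Under quantile normalization, which moved the median of all genes from 0.13 to 0.004, 24 members were higher and 9 lower, and the share of called members that were higher went from 84.6% to 72.7%. Among all genes tested, 2618 were higher and 2595 lower under that scaling, and the share of called genes that were higher went from 59.1% to 50.2%. The 9 members whose calls were lost under that scaling were Eif2s3x, Eif3a, Eif3c, Eif3d, Eif3g, Eif3j1, Eif3l, Eif4a3 and Eif4b, and the 3 newly called, all lower, were Eif1b, Eif3e and Eif3h.

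**Figure D1:**
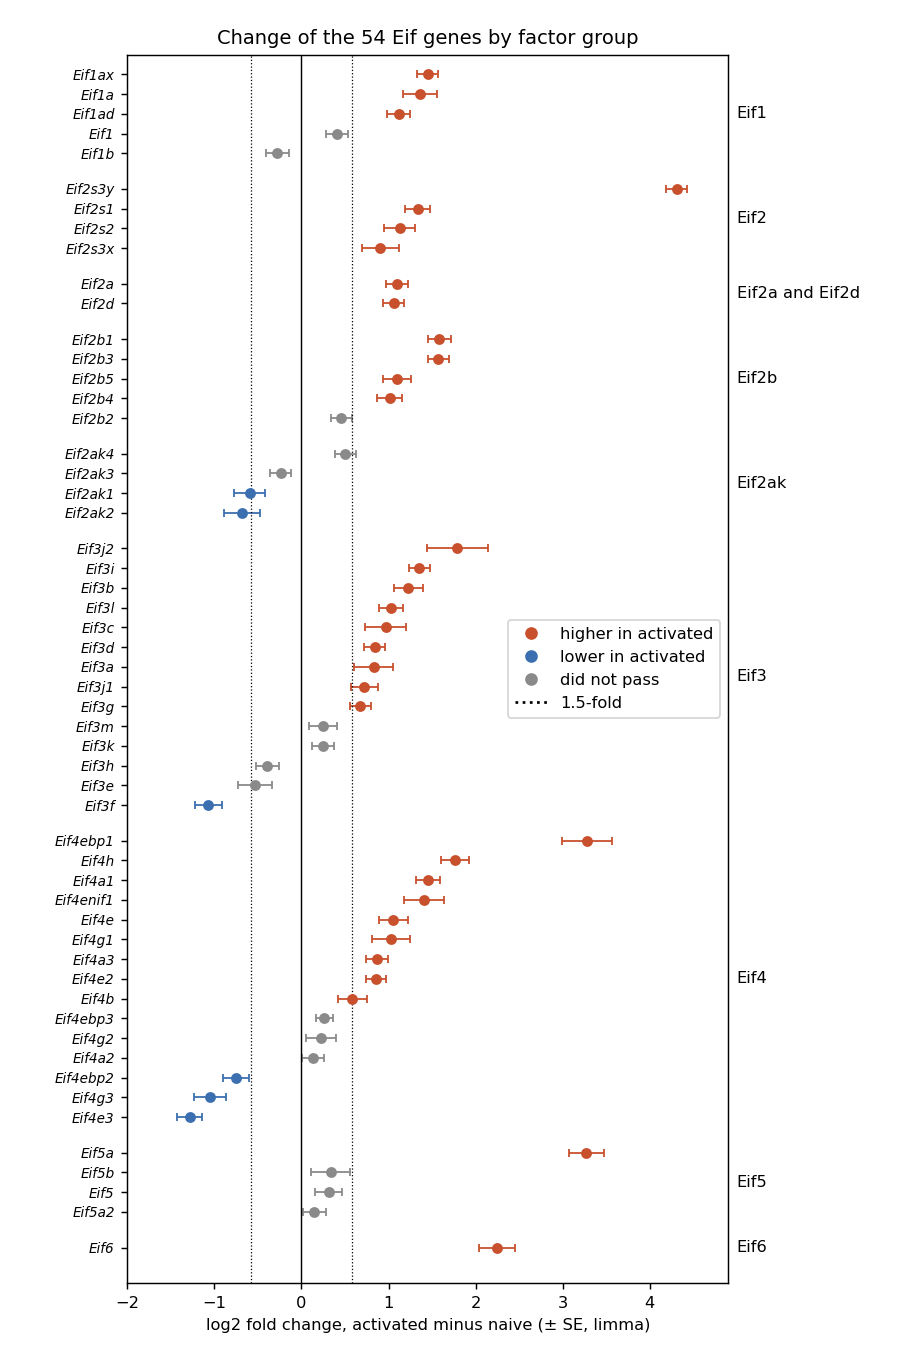
Log2 difference between activated and naive cells (x axis) for each of the 54 Eif genes (rows, grouped by factor number); points are limma estimates from 3 libraries per group, bars are 1 SE, dotted lines mark 1.5-fold. In all, 33 genes were called higher (orange) and 6 lower (blue), and 15 did not pass (grey). Eif2s3y stood at the base value in naive cells, so its position is no measure of fold.

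Marker genes followed the labels. Of 6 activation genes, 5 rose, among them Tnfrsf4 (3.97), Mki67 (2.05) and the growth regulator Myc (1.51), and of the naive T cell genes S1pr1, a receptor for lymphocyte exit from lymphoid tissue, had a log2 difference of -6.67. T cell genes such as Cd3e and Cd4 were abundant in all 6 libraries, although the 6 of them tested were lower after activation. Markers of other cells were also examined. The summed linear values of the B cell list (1 lower of 7 tested) were 15.6 to 51.2 units in naive and 10.2 to 18.4 in activated libraries, and those of the myeloid list (4 lower of 8) were 79.5 to 168.7 and 30.4 to 49.5. For CD8 and NK cell genes (1 higher and 4 lower of 7) they were 139.5 to 182.3 and 187.7 to 266.2, for regulatory T cell genes (2 higher and 3 lower of 7) 172.3 to 220.5 and 342.1 to 636.8, and Ncr1, Ebf1, Pax5 and Cd14 stayed near the base. Within the CD8 and NK list Nkg7 rose from a mean of 53.7 to 226 linear units, while Cd8b1 fell from 58.0 to 8.29 and Klrd1 from 27.8 to 0.139, and Cd8a was not tested (2.40, 3.16 and 2.14 on the log2 scale in naive, 1.94, 2.12 and 2.18 in activated libraries). Foxp3 fell by 2.45 on the log2 scale, and Il2ra stands in both the activation and the regulatory list. The part of these cells in the results was not tested. In bulk libraries, fewer cells of a type and less RNA per cell cannot be told apart. Naive replicate 3 and activated replicate 1 deviated most within their groups, with SDs of log2 differences of 0.354 to 0.377 and 0.283 to 0.288, against 0.159 and 0.108 between the remaining libraries. The remaining naive libraries share 352 identical values and the remaining activated libraries 670, none of them in a member. Whether these libraries are fully independent was not tested, and the p-values take all 3 of a group as independent. With the libraries that share values averaged, 33 members were higher and 7 lower.

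Promoters were examined for the E-box CACGTG, the element bound by MYC with its partner MAX, because many genes of ribosomes and translation carry it. RefSeq promoters (GRCm38.p6, 250 bases before to 50 after each annotated start) matched 43 of the 54 members. The palindrome CACGTG was present in 10 of these 43 (23.3%), against 8.1% of 27025 genes and 12.1% of the 8321 tested genes that had a promoter. It was found in all 3 classes of calls, in 6 of 27 higher members, 1 of 5 lower members and 3 of 11 that did not pass. The element TGATGNAA, the core of the site of the stress factor ATF4 and its C/EBP partner, was found on either strand in 1 member (Eif2s3x, 2.3%), against 4.5% of all genes and 2.6% of tested genes. No window shown holds TGATGNAA, and a match is a description of letters, not of binding.

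Windows of 30 bases with the E-box in capitals are shown for 4 higher members, for the lower member Eif3f and for Eif3k, which did not pass, so that the same 6 letters can be seen in all 3 classes.
Eif5a: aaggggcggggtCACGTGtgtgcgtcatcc
Eif4e: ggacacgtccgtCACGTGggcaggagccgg
Eif4a1: cgatcgcctccgCACGTGtaaaggtgctgg
Eif4h: cggccgccgcacCACGTGggccgcagagcg
Eif3f: caagatatgattCACGTGgtataaatttag
Eif3k: ctggaaggaaatCACGTGgtagacaaaaaa
They lie, in this order and read 5' to 3' on the strand of the gene, at chr11:69921443-69921472, minus strand, chr3:138527192-138527221, plus strand, chr11:69672595-69672624, minus strand, chr5:134639488-134639517, minus strand, chr7:108934335-108934364, plus strand and chr7:28981915-28981944, minus strand of GRCm38.p6. The E-box begins 74 bases before an annotated start of Eif5a, 64 before that of Eif4e, 189 before that of Eif4a1, 96 before that of Eif4h, 68 before that of Eif3f and 44 before that of Eif3k.

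All 4 genes of eIF2, the carrier of the initiator tRNA, were higher in activated cells, against 31.2% of all genes tested. Eif2s1, the alpha subunit that the stress kinases phosphorylate, rose by 1.33 ± 0.14 and Eif2s2, the beta subunit, by 1.13 ± 0.18 on the log2 scale (SE). The gamma subunit, which binds GTP and the tRNA, is encoded in mice by an X-linked and a Y-linked gene. Eif2s3x (chrX:94188707-94212862, minus strand, GRCm38/mm10) stood at 6.63, 6.64 and 6.93 in the naive libraries and at 8.11, 7.51 and 7.29 in the activated libraries. Every activated library lay above every naive one, with a log2 difference of 0.91 ± 0.21 (SE, n = 3 per group, limma with Benjamini-Hochberg adjusted p = 0.00334), and 0.45 under quantile normalization, where it did not pass.

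Eif2s3y (chrY:1010543-1028847, plus strand) stood at the base value in all 3 naive libraries (2.05, 2.04 and 1.95) and at 6.19, 6.41 and 6.36 in the activated libraries. In linear units it was 68.8, 81.1 and 78.4 after activation and 0.157, 0.127 and -0.107 before. No fold is given, since the naive level was that of no signal. All activated libraries lay above all naive ones, and the gene was called higher, but the size of its log2 difference is set by the offset of the scale: it was 4.31 on the deposited scale (limma adjusted p = 3.71e-08) and 8.72, 7.02 and 6.14 when a pseudocount of 0.1, 0.5 or 1 was added to the linear units. The other Y-linked genes of the list moved the same way. Ddx3y, an RNA helicase, went from 0.295 ± 0.338 to 38.2 ± 2.40 linear units (mean ± SD), Kdm5d, a histone demethylase, from 1.80 ± 0.349 to 8.13 ± 0.440 and Uty, the Y-linked relative of the histone demethylase Utx, from 0.563 ± 0.292 to 5.33 ± 0.466. Thus all 4 Y-linked genes were low in the 3 naive and higher in the 3 activated libraries. The labels do not give the sex of the donors of each library, so that donor sex and activation cannot be told apart for Eif2s3y. If donor sex differed between the groups, the same holds for every other gene, X-linked Eif2s3x and Eif1ax among them. Xist, the X-linked gene of the same list, is not in the table. Eif2s3x and Eif2s3y share 86.3% of their coding bases, with a longest identical run of 34 bases. The share of Eif2s3y in the summed linear values of both genes was 20.2, 31.2 and 33.9% in the activated libraries, and at most 0.165% in the naive libraries. The sum of both genes, on the log2 scale, went from 6.73 ± 0.17 to 8.12 ± 0.28 (mean ± SD).

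**Figure D2:**
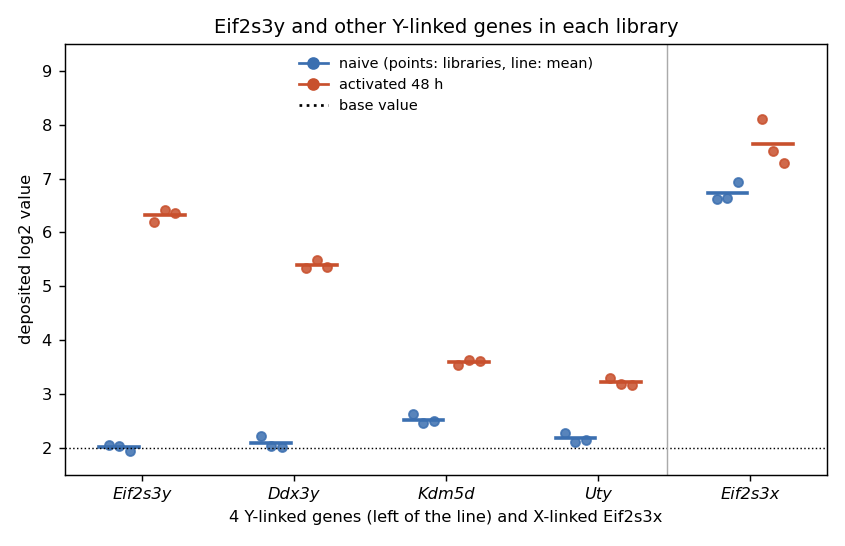
Deposited log2 values (y axis) of 4 Y-linked genes and of X-linked Eif2s3x in each library; points are libraries, thick lines group means, and the dotted line is the base value of 1.99. All 4 Y-linked genes were higher in the 3 activated libraries (orange) than in the 3 naive libraries (blue), and Eif2s3y stood at the base in naive cells.

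Eif2a and Eif2d encode factors that deliver initiator tRNA without GTP in special cases, and despite its symbol Eif2a does not encode the alpha subunit of eIF2. Eif2a stood at 5.21, 5.27 and 5.50 in naive and 6.42, 6.46 and 6.39 in activated libraries, with a log2 difference of 1.10 ± 0.13 (SE, n = 3 per group, limma with Benjamini-Hochberg adjusted p = 4.78e-05). Its 3 activated values lay close together and above all naive values. Eif2d differed by 1.06 ± 0.12. Eif2a shares 72 exon bases with Serp1 and Eif2d 78 with Rassf5, both on the opposite strand, and whether the counting used strand is not stated in the sources used here.

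eIF2B reloads eIF2 with GTP, and 4 of its 5 subunit genes rose (80%, against 31.2% of all genes tested). Eif2b1, the alpha subunit (chr5:124570213-124579131, minus strand), stood at 4.99, 4.92 and 5.23 in the naive and 6.75, 6.59 and 6.54 in the activated libraries. The groups were far apart, with a log2 difference of 1.58 ± 0.14 (SE, n = 3 per group, limma with Benjamini-Hochberg adjusted p = 6.95e-06). Eif2b3 (gamma) rose by 1.57 ± 0.12, Eif2b5 (epsilon, the catalytic subunit) by 1.09 ± 0.16 and Eif2b4 (delta) by 1.02 ± 0.14. The order of Eif2b1 and Eif2b3 depends on the offset of the scale. With pseudocounts of 0.1, 0.5 and 1, Eif2b3 rose by 1.95, 1.90 and 1.84 and Eif2b1 by 1.71, 1.69 and 1.68. Eif2b2 (beta), the highest of the 5 in naive cells, differed by 0.46 ± 0.12, short of 1.5-fold (adjusted p = 0.00719). The 5 subunits, whose proteins are present in equal numbers in the complex, lay closer together after activation. The SD of the log2 values over the 5 genes was 0.927, 0.977 and 0.860 in the naive libraries and 0.613, 0.592 and 0.580 in the activated libraries, with no overlap. These values were looked for after the levels were seen and were not tested. Gene sets outside eIF2B and eIF3 were not measured, so the narrower spread is not read as a trait of eIF2B.

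The 4 kinases that phosphorylate eIF2 alpha were the only factor group without a higher member. Of all genes tested, 31.2% were higher and 21.6% lower. Eif2ak2 encodes PKR, which double-stranded RNA activates, and it stood at 3.995, 3.81 and 4.45 in naive and 3.80, 3.23 and 3.19 in activated libraries. All activated values lay below all naive values, the nearest by a narrow margin, with a log2 difference of -0.68 ± 0.21 (SE, n = 3 per group, limma with Benjamini-Hochberg adjusted p = 0.015). Eif2ak1, the heme-regulated kinase HRI (chr5:143817788-143904251, plus strand), stood at 5.36, 5.44 and 5.84 (naive) and 5.22, 4.91 and 4.71 (activated). Its groups did not overlap, with a log2 difference of -0.60 ± 0.18 (SE, n = 3 per group, limma with Benjamini-Hochberg adjusted p = 0.0134). Both calls were lost when certain single libraries were left out. Without naive replicate 3, where both genes were highest, the differences were -0.45 for Eif2ak1 and -0.50 for Eif2ak2 and neither passed. Without activated replicate 3 they were -0.48 and -0.57 and neither passed, Eif2ak1 did not pass without activated replicate 2 (-0.58, adjusted p = 0.037, under 1.5-fold), and Eif2ak2 did not pass with no filter (adjusted p = 0.0598). Eif2ak1 also shares 487 exon bases with Aimp2 on the opposite strand, and Aimp2 rose by 1.39. Eif2ak3 (PERK, the kinase of endoplasmic reticulum stress) differed by -0.24 ± 0.12 and did not pass (adjusted p = 0.0971). Eif2ak4 (GCN2, which senses uncharged tRNA) was higher in every activated library (3.51, 3.15 and 3.13 against 2.76, 2.71 and 2.79), but its difference of 0.51 ± 0.12 fell short of 1.5-fold (adjusted p = 0.00319). Eif2ak4 lies near the base, and with pseudocounts of 0.1, 0.5 and 1 on the values above it the difference was 0.98, 0.89 and 0.80 and passed.

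eIF1 and eIF1A hold the ribosome open for scanning and guard the choice of the start codon. Both eIF1A genes were called higher, whereas Eif1 was higher in every activated library without reaching 1.5-fold and Eif1b did not pass. Eif1ax, X-linked, stood at 6.34, 6.33 and 6.42 in naive and 7.73, 7.87 and 7.85 in activated libraries, with a log2 difference of 1.45 ± 0.12 (SE, n = 3 per group, limma with Benjamini-Hochberg adjusted p = 5.27e-06). Its autosomal relative Eif1a, with 85.6% of its coding bases shared, stood at 5.24, 5.36 and 5.95 (naive) and 6.97, 6.99 and 6.68 (activated) and rose by 1.36 ± 0.20 (adjusted p = 0.000189). Their within-library difference was -0.85 ± 0.34 before and -0.93 ± 0.21 after activation (mean ± SD), a change of -0.09 with overlapping groups, and 3 libraries per group cannot show that both rose alike. Eif1ad, a relative with an eIF1A domain, rose by 1.12 ± 0.13, and it shares 428 exon bases with Banf1 on the opposite strand, which rose by 1.85.

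Eif1 was among the highest members at 9.12, 9.27 and 9.14 in naive and 9.54, 9.52 and 9.72 in activated libraries. The activated values were all above the naive ones, but the difference of 0.41 ± 0.13 was short of 1.5-fold (adjusted p = 0.0156). Eif1b, whose coding bases are 81.1% identical, stood at 7.27, 7.41 and 7.52 (naive) and 6.998, 7.16 and 7.20 (activated), all activated values below the naive ones, with a difference of -0.28 ± 0.13 (adjusted p = 0.0792), and was called lower only under quantile normalization (-0.75). Within a library, Eif1 exceeded Eif1b by 1.78 ± 0.13 (SD) in naive and 2.47 ± 0.10 in activated cells. For Eif1, 13 annotated gene models hold a near-identical stretch (at least 95% identity over 200 bases). The 1 in the table, Emd, is a different protein-coding gene, with the same match as the pseudogene Gm14686 (96.8% over 343 bases). Such stretches also exist for other members, among them Eif2s2, Eif3e, Eif3h, Eif4e and Eif5a. They reach 100% over 1347 bases for Eif2s3x (Gm2223) and 99.9% over 1218 for Eif4a1 (Eif4a-ps4). How reads from such stretches were counted is not stated in the sources used here.

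eIF3, the largest initiation factor, organizes the small ribosomal subunit and its genes changed unequally. Of the 14 genes, 9 were higher (64.3%, against 31.2% of all genes tested), 1 was lower (7.14%, against 21.6%) and 4 did not pass. Eif3i rose most among the 12 stable subunits (1.35 ± 0.12), followed by Eif3b (1.23), Eif3l (1.03), Eif3c (0.97), Eif3d (0.84), Eif3a (0.83) and Eif3g (0.68). Eif3i and Eif3b encode, with Eif3g, the module at the mRNA entry side of the ribosome, and Eif3d can itself bind caps of certain mRNAs. Under quantile normalization Eif3a, Eif3c, Eif3d, Eif3g and Eif3l kept their direction and did not pass. Eif3f (chr7:108934417-108942951, plus strand) went the other way, at 9.38, 9.59 and 9.87 in the naive and 8.59, 8.50 and 8.55 in the activated libraries. No activated library reached a naive one, with a log2 difference of -1.07 ± 0.15 (SE, n = 3 per group, limma with Benjamini-Hochberg adjusted p = 0.00016). In linear units Eif3f went from a mean of 787.1 to one of 369.7.

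Eif3e and Eif3h were lower in every activated library without passing. Eif3e stood at 8.88, 8.92 and 9.53 (naive) and 8.40, 8.76 and 8.57 (activated), a difference of -0.54 ± 0.19 (adjusted p = 0.0306) just short of 1.5-fold, and it was called lower under all 3 other scalings and without naive replicate 1 (-0.65), naive replicate 2 (-0.63) or activated replicate 2 (-0.63). Without naive replicate 3, where Eif3e was highest, the difference was -0.33. Eif3h, the highest eIF3 gene, stood at 10.03, 10.18 and 10.33 (naive) and 9.81, 9.76 and 9.78 (activated), a difference of -0.39 ± 0.13 (adjusted p = 0.0218). Eif3k and Eif3m differed by 0.24 and 0.25, did not pass, and turned to -0.30 and -0.23 under quantile normalization. In human eIF3, mass spectrometry assigned the subunits to 3 modules. All 4 genes of the module a, b, i and g were higher, 3 of 5 of the module c, d, e, l and k, and none of 3 of the module f, h and m, of which Eif3f was lower. Of all genes tested, 31.2% were higher and 21.6% lower. Under quantile normalization Eif3a and Eif3g of the first module and Eif3c, Eif3d and Eif3l of the second did not pass. Differences between the modules were not tested. In human cells the mRNAs of subunits e, f and h carry a 5' terminal oligopyrimidine tract (TOP), the signature of ribosomal protein mRNAs. These 3 genes had the 3 lowest differences of the 12 (-1.07 to -0.39), against 0.24 to 1.35 for the other 9. This grouping was chosen after the values were seen. It covers eIF3 genes only, and TOP mRNAs as a class were not examined.

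The 12 stable subunits lay closer together in activated cells. The SD of their log2 values was 1.03, 1.09 and 1.15 in the naive libraries and 0.572, 0.666 and 0.645 in the activated libraries. The highest subunit gene was 12.8 ± 1.57 times the lowest in naive and 5.32 ± 0.325 times in activated cells (mean ± SD of linear ratios). Eif3e, Eif3f and Eif3h together held 57.2 ± 2.39% of the summed linear values of the 12 genes in naive and 33.2 ± 2.06% in activated cells. None of these measures overlapped between the groups, and none was tested, because they were chosen with the levels known. Full separation was common among single genes tested, with 43.9% all above and 32.9% all below in activated libraries. Gene sets outside eIF3 and eIF2B were not measured, so the narrower spread is not read as a trait of eIF3.

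**Figure D3:**
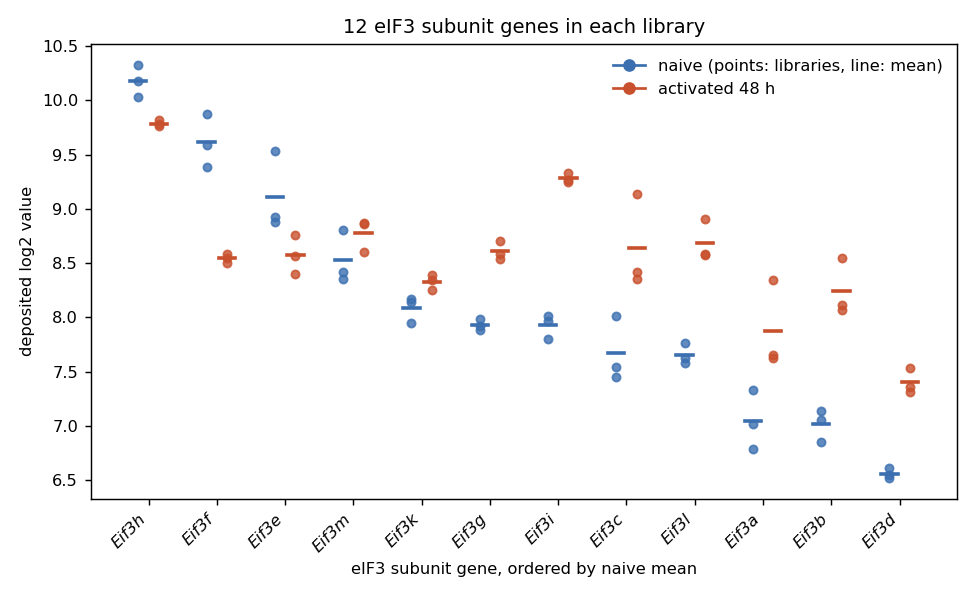
Deposited log2 values (y axis) of the 12 stable eIF3 subunit genes (x axis, ordered by their naive mean) in each library; points are libraries and short lines group means. In naive cells (blue) the genes spread from Eif3h down to Eif3d, and in activated cells (orange) they lay closer together, with SDs of 0.57 to 0.67 against 1.03 to 1.15.

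Eif3j, a loosely bound subunit, is represented by 2 genes that cannot be separated. Eif3j1 stood at 5.96, 5.97 and 6.45 in naive and 6.82, 6.90 and 6.82 in activated libraries and rose by 0.72 ± 0.16 (adjusted p = 0.0024). Eif3j2, a gene of 1 exon, stood near the base at 2.26, 2.004 and 2.43 in naive and at 5.01, 3.44 and 3.61 in activated libraries, highest in activated replicate 1, with a difference of 1.79 ± 0.35 (adjusted p = 0.00126). Since Eif3j2 lies near the base in naive cells, the size depends on the offset, with 4.36, 3.47 and 2.96 for pseudocounts of 0.1, 0.5 and 1. Their coding sequences share a run of 781 identical bases (99.2% identity over the whole), so that reads from either can be counted for the other. Eif3j1 also shares 1107 exon bases with Spg11 on the opposite strand. The values of both genes are therefore uncertain.

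In eIF4F, the main helicase gene rose and its closest relative did not pass. Eif4a1 (chr11:69666936-69672423, minus strand) stood at 8.61, 8.73 and 8.92 in naive and 10.35, 10.22 and 10.07 in activated libraries. No values overlapped, with a log2 difference of 1.46 ± 0.14 (SE, n = 3 per group, limma with Benjamini-Hochberg adjusted p = 1.48e-05). Eif4a2, whose coding bases are 77.8% identical, stood at 7.36, 7.15 and 7.20 (naive) and 7.45, 7.40 and 7.26 (activated). Its groups overlapped and the difference of 0.13 ± 0.13 did not pass (adjusted p = 0.383). The sign for Eif4a2 turned under all 3 other scalings, and its exons share 194 bases with Rfc4 on the opposite strand, which rose by 2.69. Eif4a1 made up 74.3 ± 3.31% of the summed linear values of both genes in naive and 88.0 ± 0.336% in activated cells. Eif4a3, the helicase of the exon junction complex rather than of initiation, stood at 7.18, 7.34 and 7.26 (naive) and 8.27, 8.04 and 8.08 (activated) and rose by 0.87 ± 0.13 (adjusted p = 0.000209), and by 0.39 without passing under quantile normalization. Both Eif4a1 and Eif4a2 host small nucleolar RNAs in the annotation.

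Eif4b and Eif4h encode related cofactors that stimulate eIF4A, and their levels lay closer together after activation. Eif4h stood at 6.28, 6.47 and 6.01 in naive and 8.24, 7.96 and 7.86 in activated libraries, with a log2 difference of 1.77 ± 0.16 (SE, n = 3 per group, limma with Benjamini-Hochberg adjusted p = 1.07e-05). Eif4b, the higher of both in naive cells, stood at 7.69, 7.78 and 7.91 (naive) and 8.70, 8.20 and 8.23 (activated), a difference of 0.59 ± 0.16 (adjusted p = 0.00941) at the very edge of 1.5-fold. The call of Eif4b was lost under every other scaling (0.07 to 0.45), without naive replicate 1 (0.53), without naive replicate 2 (0.58) and without activated replicate 1 (0.42). Eif4b exceeded Eif4h by 1.54 ± 0.32 (SD) in naive and by 0.36 ± 0.11 in activated libraries on the log2 scale.

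Of the 3 eIF4E genes, 2 rose and 1 fell. Eif4e, the cap-binding protein of eIF4F, stood at 5.68, 5.69 and 6.19 in naive and 7.02, 6.98 and 6.73 in activated libraries, with a log2 difference of 1.06 ± 0.17 (SE, n = 3 per group, limma with Benjamini-Hochberg adjusted p = 0.000392). Eif4e2, the cap-binding protein 4EHP that represses translation of certain mRNAs, stood at 5.02, 4.95 and 4.92 (naive) and 5.87, 5.79 and 5.80 (activated) and rose by 0.85 ± 0.11 (adjusted p = 0.000122). The rise of Eif4e exceeded that of Eif4e2 by 0.20, with overlapping libraries (exact two-sided permutation test, p = 0.4, n = 3 per group). Eif4e3, a further cap-binding relative (chr6:99625135-99666771, minus strand), stood at 4.62, 4.57 and 4.79 (naive) and 3.64, 3.19 and 3.29 (activated). It had the largest fall of the family, with a log2 difference of -1.29 ± 0.15 (SE, n = 3 per group, limma with Benjamini-Hochberg adjusted p = 4.06e-05). Its share of the summed linear values of the 3 genes was 20.7 ± 0.775% in naive and 3.68 ± 0.794% in activated cells (mean ± SD). In the annotation Eif4e3 shares 373 exon bases with the gene model Gm20696 on the same strand, which was not analysed here.

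Among the scaffolds, Eif4g1 rose and Eif4g3 fell. Both encode eIF4G proteins that join eIF4E, eIF4A and eIF3. Eif4g1 stood at 5.33, 5.24 and 5.43 in naive and 6.92, 6.07 and 6.09 in activated libraries, highest in activated replicate 1, with a log2 difference of 1.03 ± 0.22 (SE, n = 3 per group, limma with Benjamini-Hochberg adjusted p = 0.00228). Eif4g3 (chr4:137993022-138208508, plus strand) stood at 4.99, 4.76 and 5.39 (naive) and 4.25, 3.86 and 3.88 (activated). Its groups were apart, with a log2 difference of -1.05 ± 0.19 (SE, n = 3 per group, limma with Benjamini-Hochberg adjusted p = 0.000673). In naive cells the pair was near balance, Eif4g1 being 55.5 ± 4.38% of their summed linear values, and in activated cells it was 86.6 ± 1.69%. Eif4g2, a scaffold without the eIF4E site (DAP5), was the highest of the 3 in all libraries at 7.56, 7.53 and 7.997 (naive) and 8.12, 7.87 and 7.76 (activated). Its groups overlapped, the difference of 0.22 ± 0.17 did not pass (adjusted p = 0.252), and its sign turned under quantile (-0.27) and upper-quartile scaling (-0.0058). Eif4enif1, which carries eIF4E into the nucleus and to P-bodies, rose by 1.41 ± 0.23.

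The inhibitors of eIF4E changed places. Eif4ebp1 (chr8:27260329-27276674, plus strand) stood at 4.07, 4.61 and 4.09 in the naive and 8.24, 7.05 and 7.32 in the activated libraries. The gap between the groups was more than 2 log2 units, with a log2 difference of 3.28 ± 0.29 (SE, n = 3 per group, limma with Benjamini-Hochberg adjusted p = 8.20e-06). Eif4ebp2 (chr10:61428491-61452661, minus strand) stood at 6.67, 6.99 and 6.86 (naive) and 6.30, 5.94 and 6.02 (activated), all activated values below the naive ones, with a log2 difference of -0.75 ± 0.15 (SE, n = 3 per group, limma with Benjamini-Hochberg adjusted p = 0.00127). Eif4ebp3 was low at 3.11, 2.86 and 2.92 (naive) and 3.26, 3.21 and 3.19 (activated), a difference of 0.26 ± 0.10 short of 1.5-fold (adjusted p = 0.0368). Of the summed linear values of the 3 genes, Eif4ebp1 held 11.1, 13.9 and 10.1% in the naive and 78.8, 67.1 and 70.3% in the activated libraries. Eif4ebp2 went the opposite way, from 85.3 ± 1.71% to 25.7 ± 5.38% (mean ± SD). The sum of the 3 relative to Eif4e was 2.43, 3.08 and 1.87 in naive and 3.00, 1.57 and 2.18 in activated libraries, so that the groups overlapped in this ratio while the genes behind it differed.

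Changes within 14 pairs of related members were compared by the difference of their log2 values in each library. For 12 pairs the 3 naive and 3 activated differences did not overlap, which gives p = 0.1 in the exact two-sided permutation test, the smallest value that 3 against 3 libraries allow. Full separation was common among single genes: of all genes tested, 43.9% had all activated values above and 32.9% all below the naive ones. Pairs of unrelated genes were not compared, so the 12 are not read as a trait of related genes. Eif2s3x with Eif2s3y and Eif3j1 with Eif3j2 were among these 12, and no size is given for them, since Eif2s3y and Eif3j2 stood at or near the base in naive cells and donor sex or shared sequence limits their values. Eif4ebp1 gained 4.04 on Eif4ebp2, Eif5a gained 3.13 on Eif5a2, Eif4e gained 2.34 on Eif4e3 and Eif4g1 gained 2.08 on Eif4g3. Eif4a1 gained 1.33 on Eif4a2 and 0.59 on Eif4a3, Eif4g1 gained 0.80 on Eif4g2 and Eif1 gained 0.69 on Eif1b. Eif4b relative to Eif4h (-1.18) and Eif4ebp2 relative to Eif4ebp3 (-1.01) went down. The pairs overlap in their genes, and no adjustment could bring such a p under 0.05.

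**Figure D4:**
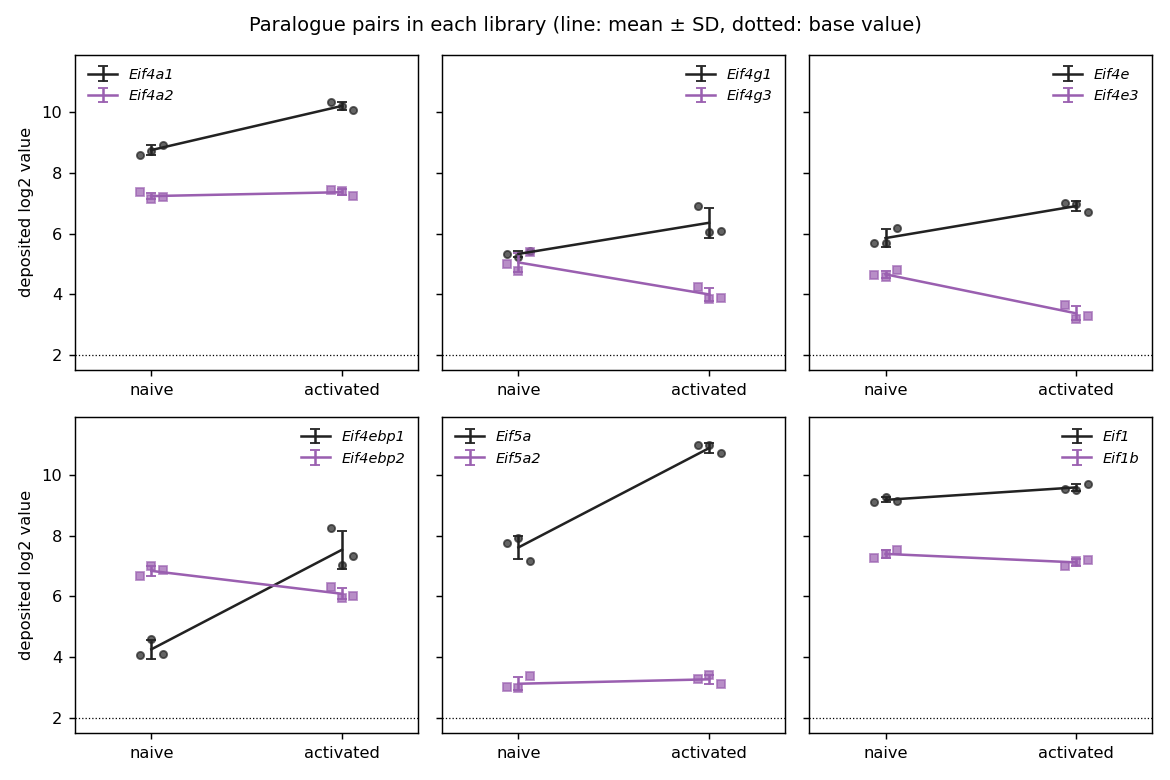
Deposited log2 values (y axis) of 6 pairs of related Eif genes in naive and activated cells; points are libraries, lines join means, bars are SDs (n = 3 per group) and the dotted line is the base value. Eif4ebp1 crossed Eif4ebp2, Eif4g1 and Eif4g3 separated from near equal levels, and Eif5a rose while Eif5a2 did not pass.

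Of the eIF5 group, only Eif5a passed. eIF5A carries hypusine, an amino acid made from spermidine, and serves elongation and termination, above all at stretches of proline. Eif5a (chr11:69916714-69921958, minus strand) stood at 7.76, 7.91 and 7.17 in the naive libraries, lowest in replicate 3, and at 10.97, 10.98 and 10.71 in the activated libraries. In linear units these were 212, 236 and 140 and 2005, 2009 and 1669, which made it the highest Eif gene of activated cells. The groups were separated by more than 2 log2 units, with a log2 difference of 3.27 ± 0.20 (SE, n = 3 per group, limma with Benjamini-Hochberg adjusted p = 8.59e-07). Eif5a2, whose coding bases are 72.7% identical, stood near the base at 3.01, 2.98 and 3.37 (naive) and 3.29, 3.40 and 3.11 (activated), its groups overlapping (difference 0.15 ± 0.13, adjusted p = 0.342). The enzymes of hypusination rose as well. Dhps, which catalyses the first step, rose by 1.35 ± 0.16 (from 24.2 ± 5.08 to 67.0 ± 4.62 linear units, mean ± SD) and Dohh, which completes the residue, by 2.52 ± 0.26 (from 11.5 ± 5.45 to 80.6 ± 7.33). Naive replicate 3, the naive library lowest in Eif5a, was also the lowest in both enzymes.

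Eif5 and Eif5b did not pass. Eif5, which triggers GTP hydrolysis on eIF2 at the start codon, differed by 0.31 ± 0.16 (adjusted p = 0.0948), with a sign that turned under quantile normalization (-0.14). Eif5b, which joins the ribosomal subunits, differed by 0.33 ± 0.22 (adjusted p = 0.2), and 1643 of its exon bases are shared with Rev1 on the opposite strand. Eif6 binds the large ribosomal subunit, serves its production and keeps it from joining too early. Eif6 (chr2:155819832-155826925, minus strand) stood at 6.10, 6.22 and 5.45 in naive and 8.40, 8.09 and 8.02 in activated libraries, again with naive replicate 3 lowest. Every activated library was more than 1.5 log2 units above every naive one, with a log2 difference of 2.25 ± 0.21 (SE, n = 3 per group, limma with Benjamini-Hochberg adjusted p = 1.11e-05). In linear units Eif6 went from 58.2 ± 16.2 to 286 ± 41.5 (mean ± SD).

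Genes that act with the Eif family moved in both directions. Of 31 tested partners of initiation (poly(A)-binding proteins, kinases and regulators), 8 were higher (25.8%), 9 lower (29.0%) and 14 did not pass, with a median log2 difference of 0.19. Among all genes tested these shares were 31.2% and 21.6%, and the median was 0.13. The 2 cytoplasmic poly(A)-binding protein genes on the list parted: Pabpc4 rose by 2.32 ± 0.17 and Pabpc1 fell by 1.08 ± 0.28 on the log2 scale. Pdcd4, an inhibitor of eIF4A, fell by 2.999 ± 0.19, with values of 7.86, 7.94 and 8.56 in naive and 5.27, 5.05 and 5.04 in activated libraries that were far apart. Pnrc2, a decapping cofactor, fell by 1.92 ± 0.18, and Larp1, which binds TOP mRNAs, rose by 1.26 ± 0.19. Under other scalings 4 or 5 partners were higher and 9 lower.

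Genes of elongation, termination and hypusination were mostly higher, 14 of 24 tested (58.3%) against 1 lower (4.17%) and 9 that did not pass. Among all genes tested, 31.2% were higher and 21.6% lower. The median was 0.68, against 0.13 over all genes tested. Besides Dohh, the largest rises were those of Eef1e1 (2.14 ± 0.12), a subunit of the multi-synthetase complex, Dph1 (1.71 ± 0.18), a diphthamide synthesis gene, and Etf1 (1.56 ± 0.15), the termination factor eRF1. Eef1a1, the factor that brings tRNA to the ribosome, fell by 1.22 ± 0.21 from a level that ranked 2 among all genes tested. Of 31 tested mTORC1 pathway genes, 7 were higher (22.6%), 5 lower (16.1%) and 19 did not pass, with a median of 0.18. Both shares lay below those of all genes tested (31.2% higher and 21.6% lower). The sestrins, sensors that restrain mTORC1, split, with Sesn2 rising by 2.04 ± 0.20 and Sesn1 and Sesn3 falling by 1.95 ± 0.12 and 1.56 ± 0.13. Rps6, a ribosomal protein phosphorylated downstream of mTORC1, fell by 1.31 ± 0.19, and Rhebl1, a relative of the mTORC1 activator Rheb, rose by 1.28 ± 0.14. Changes in RNA of these genes do not measure the activity of the pathway.

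**Figure D5:**
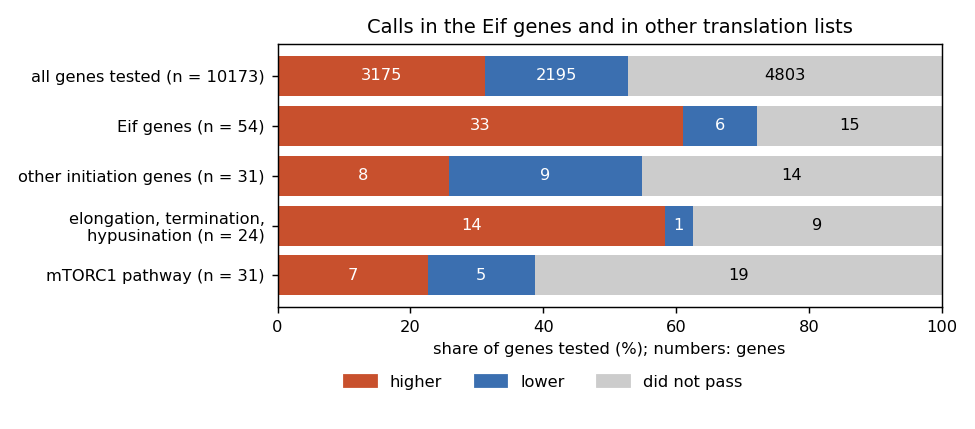
Share of genes tested (x axis, percent) called higher (orange), lower (blue) or not passed (grey) for all genes tested, the Eif genes and 3 lists of related genes; numbers in the bars are genes. The Eif genes had 33 higher and 6 lower, the elongation list 14 higher and 1 lower, and the partner and mTORC1 lists 8 and 7 higher with 9 and 5 lower.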

How the data were processed

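Upstream, HISAT2 2.0.5 (mm10), StringTie 1.3.3b and featureCounts 1.5.0-p3 were used by the authors. The deposited values of the 6 libraries are on a log2 scale, headed FPKM, in a sheet named for ComBat. Pseudocount, batches, gene filter and use of strand: not given in the sources used here. Depth is unknown, since the table holds no counts, and batch correction may have narrowed the spread on which the p-values rest.

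Genes that exceeded the base value (3.97) by 1 linear unit or more in 3 or more libraries were fitted with limma 3.58.1 in R 4.3.3 (trend, no covariate) in place of the study's count model, which needs counts. Benjamini-Hochberg adjustment covered all 10173 genes. The fit was tested on simulated data. Pairs were compared by an exact permutation test over libraries. Positions, overlaps and copies came from GENCODE vM21 (GRCm38; blastn 2.17.0, Biopython 1.88), with Python 3.11.15, pandas 2.3.3, numpy 2.4.6 and matplotlib 3.10.9.

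Members, lists, pairs and tests were chosen with earlier results of these data known. Library values are given for the largest rise and fall of each factor group, every lower member and the pairs; from other lists the 4 largest called changes and 2 opposite ones are named, and Dhps for its function. Alternatives were 3 pseudocounts, 2 filters, 3 scalings, no trend, the replicate block, 2 fold thresholds, and libraries left out, averaged or given a term.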

Additional observations from a re-analysis of the deposited data

How the results depend on the processing

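The counts of higher and lower Eif genes ranged from 24 to 37 and from 3 to 9 over all settings, against 33 and 6. Leaving out 1 library at a time gave 32 to 33 higher and 4 to 7 lower. Of the 39 called members, 28 kept their call in every setting but the 2-fold threshold, 11 lost it in at least 1, and none reversed. With a 2-fold threshold, 3 members were lower, 2 initiation partners were higher and 4 lower, and 8 elongation genes were higher. Higher initiation partners numbered 4 under quantile, 5 under median-of-ratios and 4 under upper-quartile scaling, and 5 to 9 with single libraries left out. Without a fold threshold, 12 mTORC1 genes were higher. Signs that reversed belonged to members and pairs that had not passed: Eif3k (-0.30), Eif3m (-0.23), Eif4a2 (-0.34), Eif4g2 (-0.27) and Eif5 (-0.14) under quantile normalization, Eif4a2 (-0.0015) under median-of-ratios, Eif4a2 (-0.10) and Eif4g2 (-0.0058) under upper-quartile scaling. The change of Eif1a minus Eif1ax was 0.043 under quantile normalization and -0.22 to 0.10 with single libraries left out. The causes were not tested. With the replicate block 33 members were higher and 6 lower. Same-numbered libraries did not deviate together (correlations of -0.011, -0.051 and -0.138). This cannot decide whether the numbers pair the samples, since batch correction may have removed a shared deviation. Depth is unknown, which limits statements on genes near the base value, and 3 libraries per group limit exact tests to p = 0.1.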
